A study of Mus musculus with 9 samples.

Results

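The genes of the mitochondrial genome were followed in RNA sequencing of the mouse prefrontal cortex. Members were all genes annotated on the mitochondrial chromosome, matched by Ensembl gene identifier to the table of raw counts. They numbered 37 of the 56246 genes in the table: 13 protein genes, 2 rRNA genes and 22 tRNA genes. All 37 carried symbols starting with mt-.

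The 9 libraries fell into 3 groups of 3, each taken here as a separate male mouse although the labels do not state this. Rag1 encodes part of the recombinase that assembles antigen receptors, and mice without it lack mature T and B cells. Mice labelled Rag1-/- were given extracellular vesicles (EVs) from the blood of wild-type (WT) mice by vein in replicates 2, 3 and 5, called EV libraries here. Mice labelled Rag1-/- were given vehicle in replicates 1, 2 and 3, and WT mice made up replicates 1, 3 and 6. Under treatment the WT mice are listed as having had none, although a mark for medium stands in the titles of both WT and vehicle libraries. The study's description of its frontal cortex gene lists states that these WT mice, too, were injected with medium. Per the study's methods the mice were adult, had a C57BL/6 background and were perfused before the frontal cortex was taken. The p-values below cover the variation among these 9 libraries alone.

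The mouse mitochondrial genome is a small circle that is read on both strands into long transcripts. Enzymes cut the tRNAs out of these transcripts, which frees the rRNAs and mRNAs between them. The transcript of one strand holds both rRNAs and nearly all mRNAs, and the genes on it are called heavy-strand genes here. The transcript of the other strand holds mt-Nd6 and 8 tRNAs, the light-strand genes. The mRNAs encode subunits of complex I (mt-Nd1 to mt-Nd6 and mt-Nd4l), complex III (mt-Cytb), complex IV (mt-Co1, mt-Co2 and mt-Co3) and ATP synthase (mt-Atp6 and mt-Atp8). Neurons depend on these complexes for most of their ATP.

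The sequences that bear on the results are those of the light-strand genes mt-Nd6 and mt-Tp, which encodes the proline tRNA, and of a heavy-strand gene with a nuclear copy. mt-Nd6 (chrM:13552-14070, minus strand) and mt-Nd5 (chrM:11742-13565, plus strand) run towards each other and overlap by 14 bases. Their last 60 bases are shown 5′ to 3′ from GENCODE M21 transcripts (GRCm38), each on its own strand, with the overlap in capitals.
mt-Nd6 end, chrM:13552-13611: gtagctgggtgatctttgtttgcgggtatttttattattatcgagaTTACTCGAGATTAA
mt-Nd5 end, chrM:13506-13565: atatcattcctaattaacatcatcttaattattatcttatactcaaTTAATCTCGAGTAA
The mt-Nd6 mRNA is rich in guanine and poor in cytosine. G made up 28.1% and C 5.97% of its bases, against 5.88 to 16.1% G and 22.1 to 30.0% C in the other 12 mRNAs. The mt-Tp gene (chrM:15356-15422, minus strand) is shown whole, since it was the tRNA gene with most reads. In genome coordinates no annotated gene comes after it, and the non-coding control region lies there. As the gene is on the minus strand, that region is on its 5′ side, and mt-Tt adjoins its 3′ end.
mt-Tp, chrM:15356-15422: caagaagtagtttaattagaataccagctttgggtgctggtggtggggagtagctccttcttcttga
The last 75 bases of mt-Co2 (chrM:7622-7696, plus strand) are shown with the part that its nuclear copy also holds in capitals.
mt-Co2 end, chrM:7622-7696: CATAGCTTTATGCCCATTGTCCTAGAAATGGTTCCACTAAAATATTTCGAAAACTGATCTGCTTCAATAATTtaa
Bases 1 to 681 of the 684 in mt-Co2 were identical to Gm28661, an unprocessed pseudogene at chr1:24614885-24615565 on the minus strand.

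Copies of this kind set which protein genes could be read from the counts. The table was made from uniquely aligned reads, so a read pair that fits a mitochondrial gene and a nuclear copy equally well was dropped. A pair with 1 read outside a copied stretch could still align to 1 place, so the windows below do not give the share of reads dropped. Identical copies in annotated transcripts of other chromosomes were found for 99.5% of the 75-base windows of mt-Co2 and mt-Atp6, 99.9% of mt-Co3, 97.8% of mt-Nd3 and 98.7% of mt-Nd4l. The share was 61.5% for mt-Nd4, 39.8% for mt-Co1, 5.71% for mt-Nd2 and 1.66% for mt-Nd5. With windows of 150 bases it was 59.2% for mt-Nd4, 23.6% for mt-Co1 and 0% for mt-Nd2 and mt-Nd5. No copy was found for either rRNA or for mt-Nd1, mt-Nd6, mt-Cytb and mt-Atp8. The genes with nearly complete copies held few reads. mt-Co2 had 39 to 103 reads in a library, mt-Co3 44 to 93, mt-Atp6 22 to 55, mt-Nd3 10 to 31 and mt-Nd4l 0 to 4. These counts are not levels of the mRNAs. mt-Atp8 had 0 or 1 read in each library, although no annotated copy was found. It overlaps mt-Atp6 by 43 bases, and mt-Nd4l overlaps mt-Nd4 by 7.

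**Figure D1:**
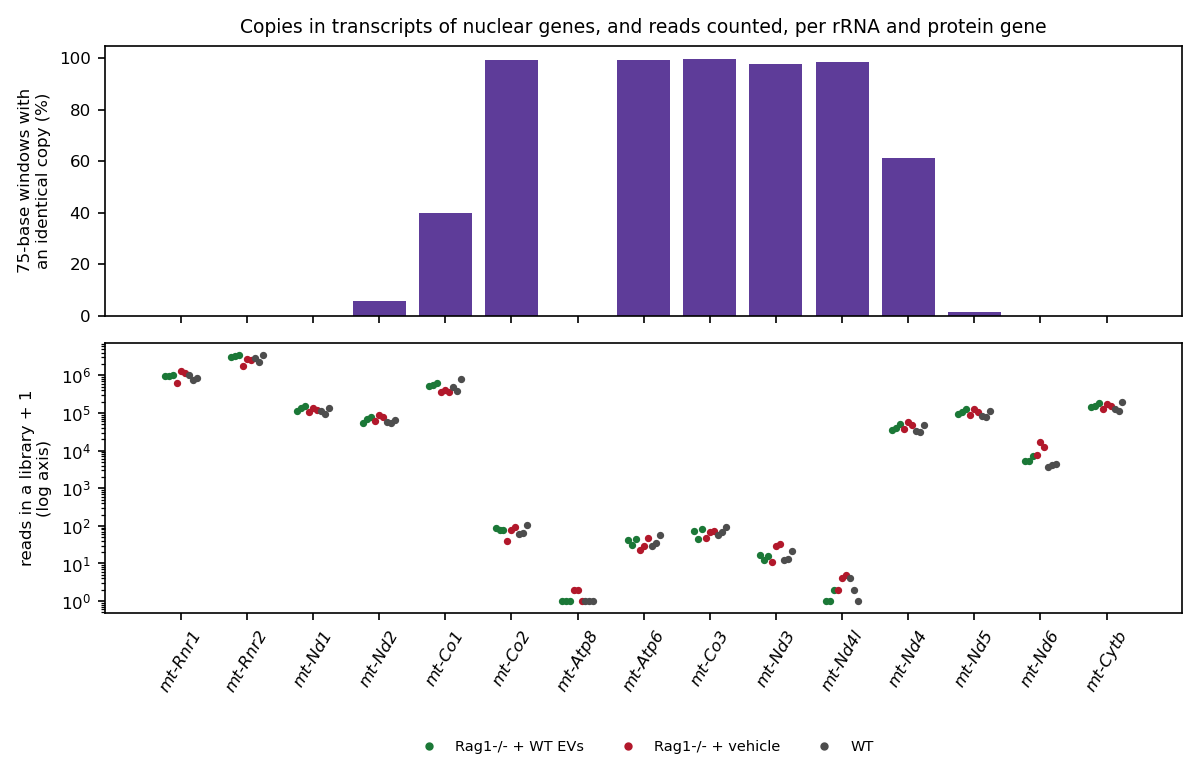
Upper panel: percent of 75-base windows of each rRNA and protein gene with an identical copy in a transcript of another chromosome, in genome order. Lower panel: reads counted in each of the 9 libraries plus 1, on a log axis, with points for the EV, vehicle and WT libraries. The 5 genes with copies for 97.8 to 99.9% of windows, and mt-Atp8, held at most 103 reads in a library.

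The copies belonged to 12 pseudogenes, all with some reads. Gm28661, Gm28437 and Gm13340 had most, with 932, 872 and 867 reads over the 9 libraries. On chromosome 1, 7 of them lie between 24611535 and 24616197 with shared windows of mt-Nd4, mt-Nd4l, mt-Nd3, mt-Co3, mt-Atp6, mt-Co2 and mt-Co1 in turn. All lie on the minus strand, so that read along it they follow the order of the mitochondrial genes. The place that mt-Atp8 would take in this order, 24614609 to 24614812, falls mostly in 233 bases between Gm10925 and Gm28661 that no gene covers. Sequence outside annotated transcripts was not searched.

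The tRNA genes were nearly without reads apart from mt-Tp. The reads of 75 bases were at least as long as each tRNA gene. For 18 of the 22, no read aligned over 75 bases within the sequence can touch them alone, because their neighbours are close. For mt-Tf, which is one of them and starts at base 1, the end of the sequence also counts, since reads across it were not considered. The 4 with room were mt-Tp, mt-Tn, mt-Tc and mt-Tl1. Over all libraries the tRNA genes held 8898 reads, of which mt-Tp held 96.8%. No read was counted for 11 tRNA genes in any library, and 7 others had at most 10 reads in all. mt-Tc, the cysteine tRNA, had 12 to 37 reads in a library. mt-Tm, the methionine tRNA, had 1, 0 and 1 reads in EV libraries, 6, 7 and 34 in vehicle libraries and 4, 1 and 0 in WT libraries, too few to test. It is one of the 18, and how reads came to be counted there was not tested. Counts at mt-Tp may include reads that reach into the control region on its 5′ side and, as strand was not used, reads of the opposite transcript.

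Levels per length were compared among 10 members, those with many reads, in RPKM, reads per kb of gene per M gene reads, computed here. mt-Rnr2, the large ribosomal RNA, averaged 49834 RPKM over the 9 libraries (range 30447 to 67504). mt-Rnr1, the small ribosomal RNA, averaged 27974 (18560 to 34257). mt-Co1 followed at 9143, without the reads dropped because of its copies. Then came mt-Cytb at 3701 and mt-Nd1 at 3579, mt-Nd2 at 1816 and mt-Nd5 at 1577, and mt-Nd4 at 860. The mt-Nd4 value is over its full length although 61.5% of its 75-base windows had copies. How many of its reads were dropped is not known, and neither is its place in this order. The lowest of the 10 were mt-Tp at 399.95 and mt-Nd6 at 389 RPKM. Each of these genes lay above the next in 9 of 9 libraries, except mt-Cytb above mt-Nd1 and mt-Tp above mt-Nd6, with 6 of 9 each. mt-Cytb and mt-Nd1 do not differ beyond the spread of the libraries. The order of mt-Tp and mt-Nd6 went by group, with mt-Tp above mt-Nd6 in every EV and WT library. In vehicle libraries mt-Tp lay below, at 257, 288 and 318 RPKM against 403, 835 and 586 for mt-Nd6. Reads of 75 bases are longer than mt-Tp, which has 67 bases, so its level per length is not comparable with that of longer genes. Its place among the 10 and the point where it crosses mt-Nd6 depend on this scale.

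The libraries held 32047740 to 41228076 reads assigned to genes. The deletion was checked by Rag1 itself, which went against the labels. It stood at 6.62, 7.08 and 5.99 CPM (counts per M gene reads) in EV libraries, 7.89, 6.81 and 7.06 CPM in vehicle libraries and 1.09, 0.875 and 0.242 CPM in WT libraries. Counts over the whole gene do not show whether a functional transcript was made, and all directions below are between libraries as labelled. Cortical neuron markers (5 of 5 detected) summed to 3286 to 3628 CPM in EV libraries, 4119 to 4576 in vehicle libraries and 3144 to 4237 in WT libraries. Astrocyte markers (2 of 2) summed to 353 to 371 CPM in EV libraries, 277 to 317 in vehicle libraries and 328 to 452 in WT libraries. Oligodendrocyte markers (3 of 3) summed to 1506 to 2272 CPM in EV libraries, 1263 to 1477 in vehicle libraries and 1288 to 2446 in WT libraries. Microglial markers (2 of 2) summed to 72.1 to 75.4 CPM in EV libraries, 68.9 to 71.6 in vehicle libraries and 63.9 to 93.0 in WT libraries. Of other tissues, choroid plexus markers (3 of 3) summed to at most 5.92 CPM, striatal markers (3 of 3) to at most 17.7, red blood cell markers (5 of 5) to at most 88.9, and T and B cell markers (3 of 4, Cd3d at 0) to at most 0.41. Reads outside exons took 7.73 to 11.2% of uniquely aligned reads in EV libraries, 6.54 to 6.90% in vehicle libraries and 8.11 to 30.1% in WT libraries, with WT replicate 6 at the top.

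Mitochondrial genes took 14.3, 15.5 and 17.7% of gene reads in EV libraries, 8.80, 13.03 and 11.0% in vehicle libraries and 14.3, 10.3 and 15.2% in WT libraries. All EV libraries lay above all vehicle libraries, while WT libraries overlapped both groups. The mean was 15.8% ± 1.73 in EV libraries, 11.0% ± 2.11 in vehicle libraries and 13.3% ± 2.62 in WT libraries (SD, n = 3 each). The difference of EV from vehicle libraries was 4.87 percentage points, with an exact 2-sided permutation p of 0.1, the smallest that 3 against 3 libraries can give. It was 0.24 after Benjamini-Hochberg adjustment over the 12 share tests made (4 measures in 3 comparisons). Vehicle libraries lay 2.31 points below WT (difference -2.31, exact permutation p = 0.3, adjusted 0.45) and EV libraries 2.56 points above WT (exact permutation p = 0.2, adjusted 0.4). None of the 12 share tests could reach 0.05. With all uniquely aligned reads as the denominator, EV libraries (12.5, 13.7 and 14.98%) lay above all WT libraries (12.2, 9.03 and 10.2%) as well, by 3.25 points (exact permutation p = 0.1), and the difference of vehicle from WT libraries was -0.695 points (exact permutation p = 0.7). WT replicate 6, with 30.1% of such reads outside exons, moved most between the denominators. In bulk tissue, fewer cells of a type and less RNA per cell cannot be told apart. Neuron marker sums were lower in all EV than in all vehicle libraries. Reads outside exons and the astrocyte, oligodendrocyte, microglial and choroid plexus sums were higher. Their part in these shares was not tested.

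**Figure D2:**
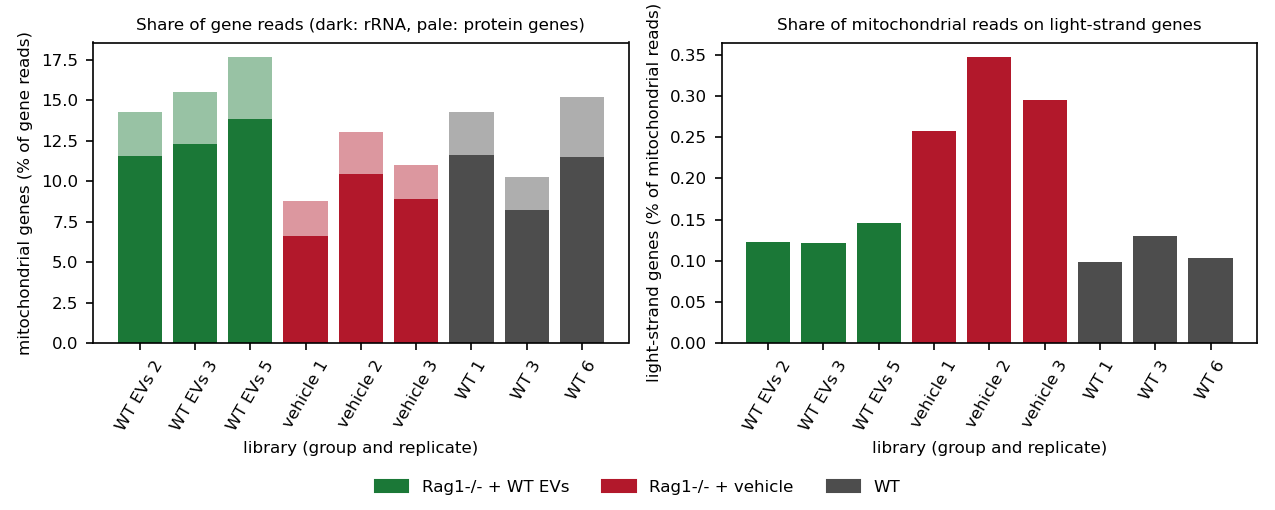
Left: percent of gene reads on mitochondrial rRNA genes (dark) and protein genes (pale) in each library. Right: percent of mitochondrial reads on light-strand genes. Vehicle libraries, in the middle, sit between 0.258 and 0.348% in the right panel, above all 6 others, which sit between 0.0989 and 0.146%.

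Most mitochondrial reads were rRNA in every library. The rRNA share of mitochondrial reads averaged 79.5% ± 1.34 in EV libraries, 78.6% ± 3.23 in vehicle libraries and 78.9% ± 2.96 in WT libraries (n = 3 each), and all groups overlapped (exact permutation p = 0.7 to 0.9). Among members with few copies alone, a choice made after seeing the data, the rRNA share in vehicle libraries (87.8, 90.03 and 90.3%) lay below that of all EV libraries (90.4 to 91.9%) and all WT libraries (90.4 to 92.3%). The difference was -1.96 points for vehicle against WT and 1.80 points for EV against vehicle libraries (exact permutation p = 0.1 for each). The tRNA share, nearly all of it mt-Tp, averaged 0.0186% ± 0.00245 in EV libraries, 0.0190% ± 0.00312 in vehicle libraries and 0.0246% ± 0.00221 in WT libraries. Both groups labelled Rag1-/- lay below WT without overlap (exact permutation p = 0.1 for each, adjusted 0.24), and did not separate from each other (exact permutation p = 0.8).

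The light-strand genes together, which means mostly mt-Nd6, took 0.123, 0.121 and 0.146% of mitochondrial reads in EV libraries, 0.258, 0.348 and 0.296% in vehicle libraries and 0.0989, 0.131 and 0.104% in WT libraries. Each vehicle library exceeded every EV and WT library, and those overlapped each other. The difference was 0.189 percentage points for vehicle against WT libraries and -0.170 points for EV against vehicle libraries (exact permutation p = 0.1 and adjusted 0.24 for both). EV libraries differed from WT by 0.0189 points (exact permutation p = 0.3, adjusted 0.45). In vehicle libraries the astrocyte sums and the reads outside exons were below those of all EV and WT libraries, and their part in the light-strand share was not tested. Most of these reads lay on mt-Nd6 in every library, 0.101 to 0.126% of mitochondrial reads in EV libraries, 0.237 to 0.333% in vehicle libraries and 0.0758 to 0.107% in WT libraries. Counts at mt-Tp, the other light-strand gene with many reads, did not share this pattern. Strand was not used in counting, so reads of the opposite transcript would be included at both genes. mt-Tp took 0.0154 to 0.0203% of mitochondrial reads in EV libraries, 0.0148 to 0.0196% in vehicle libraries and 0.0223 to 0.0266% in WT libraries.

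Gene by gene, 15 of the 37 members had enough reads to test: both rRNA genes, 11 protein genes, mt-Tc and mt-Tp. mt-Atp8, mt-Nd4l and 20 tRNA genes did not. CPM values from here on are relative to the reads of tested genes alone, with TMM scaling. The EV and WT groups were each set against the same 3 vehicle libraries, so those comparisons are not independent.

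Between the vehicle and WT libraries, mt-Nd6 rose and mt-Tp fell. mt-Nd6 encodes a membrane subunit of complex I. It stood at 207, 448 and 295 CPM in vehicle libraries, against 108, 106 and 112 CPM in WT libraries. The groups did not overlap, the WT libraries were close together, and vehicle replicate 2 was highest. The log2 fold change was 1.54 (SE 0.240, edgeR quasi-likelihood adjusted p = 0.0150). Reads behind it numbered 7521 to 16866 in vehicle libraries and 3660 to 4346 in WT libraries. Strand was not used in counting, so reads of the opposite transcript at this place are included and cannot be told apart from mt-Nd6. mt-Tp stood at 17.1, 19.9 and 20.7 CPM in vehicle libraries, against 31.7, 22.6 and 38.7 CPM in WT libraries, again without overlap. Its log2 fold change was -0.69 (SE 0.200, edgeR adjusted p = 0.0424). The limit on strand given for mt-Nd6 holds for mt-Tp too. Of the 15 members tested, 1 was called higher and 1 lower, where 6.28% of all genes tested were called higher and 9.71% lower.

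**Figure D3:**
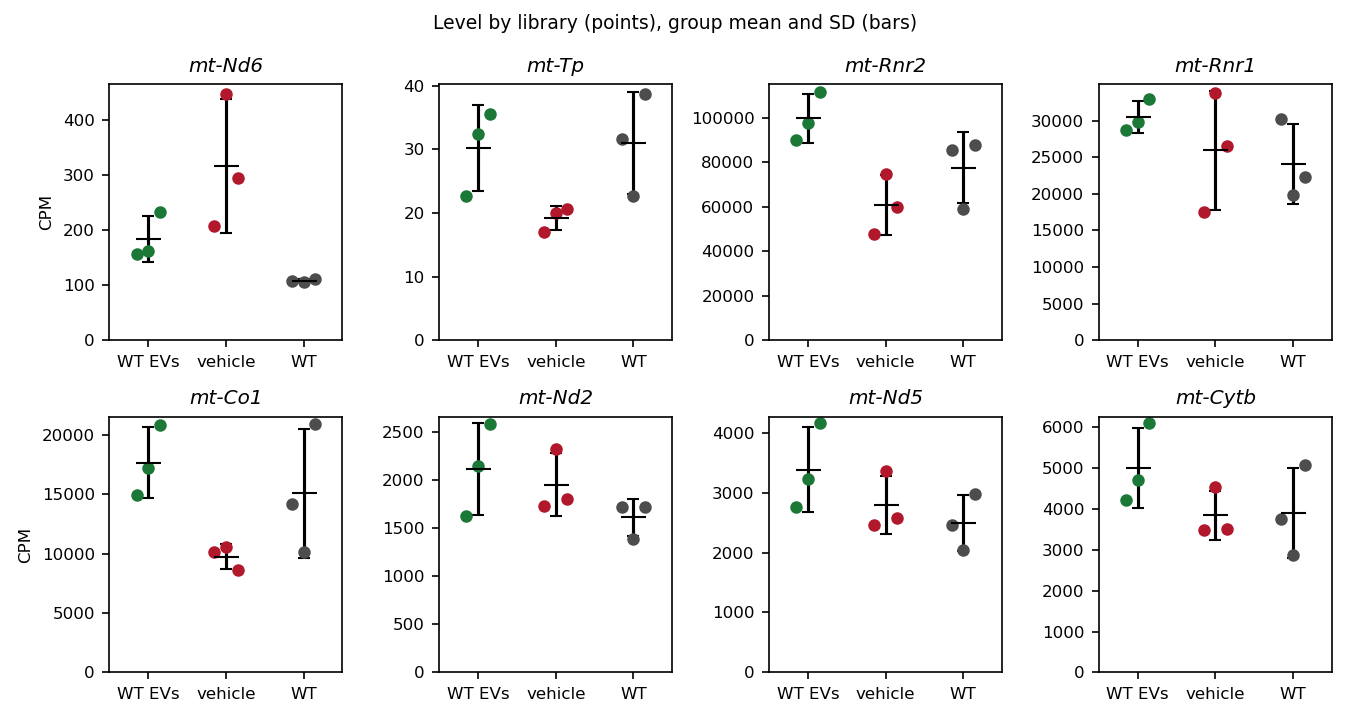
CPM of 8 members in each library (points), with group means and SDs (bars), EV libraries left, vehicle libraries in the middle and WT libraries right. mt-Nd6 in vehicle libraries reached 207 to 448 CPM, above the 106 to 112 CPM of WT libraries, while mt-Rnr2 and mt-Co1 were lower in vehicle than in EV libraries in every library.

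The call of mt-Nd6 was lost without vehicle replicate 2 (log2 fold change 1.25, edgeR adjusted p = 0.112), without vehicle replicate 3 (1.62, 0.0817), without WT replicate 1 (1.57, 0.0518) and on the 6 libraries alone (1.54, 0.0573). In these fits 0, 0, 1 and 0 of all genes tested passed, with 5278, 5258, 6058 and 5387 at an unadjusted p under 0.05. It was kept without WT replicate 6 (1.57, edgeR adjusted p = 0.00717) and where reads outside exons entered the fit as a covariate (1.68, edgeR adjusted p = 0.0391). Over 20 alternatives it was kept in 16, with adjusted p between 4.59e-09 and 0.112. The call of mt-Tp was lost without any vehicle library (edgeR adjusted p = 0.106 to 0.137), without WT replicate 1 or 6 (0.0963 and 0.0934), without EV replicate 3 or 5 (0.0679 and 0.0549) and with that covariate (log2 fold change -0.28, edgeR adjusted p = 0.531). It was kept in 9 of 20 alternatives, with adjusted p between 0.00288 and 0.531.

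The other 13 members did not pass in edgeR between vehicle and WT libraries. mt-Co1, the catalytic subunit of complex IV, stood at 10120, 10539 and 8600 CPM in vehicle libraries, against 14205, 10173 and 20917 CPM in WT libraries. Its groups overlapped (log2 fold change -0.63, SE 0.222, edgeR adjusted p = 0.0701). It was called lower by DESeq2 on all 9 libraries (-0.61, adjusted p = 0.0213), by DESeq2 on the 6 (-0.63, 0.0278), with no filter in edgeR (-0.54, 0.0473) and without WT replicate 3 (-0.80, 0.00780), which made 4 of 20 alternatives. Without WT replicate 6 it stood at -0.32 (0.229), and with the covariate at -0.03 (0.950, the highest over 20 alternatives). mt-Rnr2 stood at -0.35 (SE 0.185, edgeR adjusted p = 0.192) and mt-Rnr1 at 0.11 (SE 0.216). Of the other complex I genes, mt-Nd2 stood at 0.28 and mt-Nd4 at 0.30, mt-Nd5 at 0.16 and mt-Nd1 at 0.03. mt-Nd2 did not overlap, with 1730, 2327 and 1800 CPM in vehicle libraries against 1726, 1386 and 1724 CPM in WT libraries, but the gap was slight. mt-Cytb stood at -0.02, with signs that changed between fits. The genes with nearly complete copies stood at -0.23 (mt-Co2), -0.34 (mt-Atp6), -0.27 (mt-Co3) and 0.56 (mt-Nd3), with SEs of 0.292 to 0.486. mt-Tc stood at -0.37 (SE 0.485). Groups did not overlap for 2 members higher and 1 lower in vehicle libraries, where the shares over all genes were 18.3% higher and 19.8% lower. The median log2 fold change was -0.02 over the 15 members, nearly fully copied genes among them, and -0.03 over all genes. Over 6 heavy-strand mRNAs with many reads (mt-Nd1, mt-Nd2, mt-Co1, mt-Nd4, mt-Nd5 and mt-Cytb) the median was 0.10, with a range of -0.63 to 0.30.

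Against vehicle libraries, EV libraries had higher mt-Rnr2 and mt-Co1 values and lower mt-Nd6 values, none of which passed the test. mt-Rnr2 stood at 89887, 97639 and 111623 CPM in EV libraries, against 47703, 74453 and 59766 CPM in vehicle libraries. All EV libraries lay above all vehicle libraries (log2 fold change 0.72, SE 0.185, edgeR adjusted p = 0.0573). mt-Co1 stood at 14962, 17181 and 20841 CPM in EV libraries, against 10120, 10539 and 8600 CPM in vehicle libraries. It did not overlap either (0.86, SE 0.223, edgeR adjusted p = 0.0580). mt-Nd6 stood at 158, 162 and 233 CPM in EV libraries, against 207, 448 and 295 CPM in vehicle libraries. EV replicate 5 lay above vehicle replicate 1, so the groups overlapped (-0.78, SE 0.236, edgeR adjusted p = 0.0844). mt-Tp stood at 22.6, 32.5 and 35.5 CPM in EV libraries, against 17.1, 19.9 and 20.7 CPM in vehicle libraries (0.65, SE 0.201, edgeR adjusted p = 0.0894).

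The test called 0 of the 15 members in EV against vehicle libraries, where 2.17% of all genes were called higher and 1.24% lower. At an unadjusted p under 0.05 there were 4143 of all 17948 genes and 5 of the 15 members, the 4 above and mt-Nd1 (0.38, SE 0.164, edgeR adjusted p = 0.191). DESeq2 on all 9 libraries called mt-Rnr2, mt-Co1 and mt-Tp higher and mt-Nd6 lower, edgeR on the 6 libraries called the same 4, and limma-voom called 0. In the 20 alternatives mt-Co1 was called in 9 and mt-Rnr2, mt-Nd6 and mt-Tp in 6 each. Without WT replicate 6 edgeR also called these 4, and without WT replicate 3 all of them but mt-Nd6. mt-Rnr1 stood at 0.23, mt-Nd2 at 0.12, mt-Nd4 at 0.06, mt-Nd5 at 0.28 and mt-Cytb at 0.38. mt-Co2 stood at 0.50, mt-Atp6 at 0.53, mt-Co3 at 0.32, mt-Nd3 at -0.44 and mt-Tc at -0.28. Groups did not overlap for 4 members higher in EV libraries (mt-Rnr2, mt-Co1, mt-Co2 and mt-Tp) and 0 lower. Over all genes 20.1% did so higher and 16.8% lower. mt-Co2 is nearly fully copied, so its counts are not a level of its mRNA. The median log2 fold change was 0.32 over the 15 members and 0.04 over all genes. The 0.32 was the value of mt-Co3, whose counts, like those of mt-Atp6 and mt-Nd3, are not a level of its mRNA either. Over the 6 heavy-strand mRNAs with many reads the median was 0.33, with a range of 0.06 to 0.86.

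EV against WT libraries gave 0 calls among the 15 members, where 0.039% of all genes were called higher and 0.00557% lower. At an unadjusted p under 0.05 there were 2944 of all 17948 genes and 4 of the 15 members. DESeq2 on all 9 libraries called mt-Nd6 alone, and limma-voom called 0. mt-Nd6 stood at 158, 162 and 233 CPM in EV libraries, against 108, 106 and 112 CPM in WT libraries. The groups did not overlap (log2 fold change 0.76, SE 0.236, edgeR adjusted p = 0.218). mt-Rnr2 did not overlap either, with 89887, 97639 and 111623 CPM in EV libraries against 85321, 59118 and 87783 CPM in WT libraries (0.37, edgeR adjusted p = 0.342). mt-Rnr1 stood at 0.34, mt-Nd1 at 0.41, mt-Nd2 at 0.40, mt-Co1 at 0.23, mt-Nd4 at 0.36, mt-Nd5 at 0.44 and mt-Cytb at 0.36. mt-Co2 stood at 0.26, mt-Atp6 at 0.19, mt-Co3 at 0.05, mt-Nd3 at 0.13, mt-Tp at -0.04 and mt-Tc at -0.65. These 2 members without overlap were both higher in EV libraries, and 0 were lower, where the shares over all genes were 8.72% higher and 7.73% lower. The median log2 fold change was 0.34 over the 15 members, nearly fully copied genes among them, and -0.01 over all genes. Over the 6 heavy-strand mRNAs with many reads the median was 0.38, with a range of 0.23 to 0.44.

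**Figure D4:**
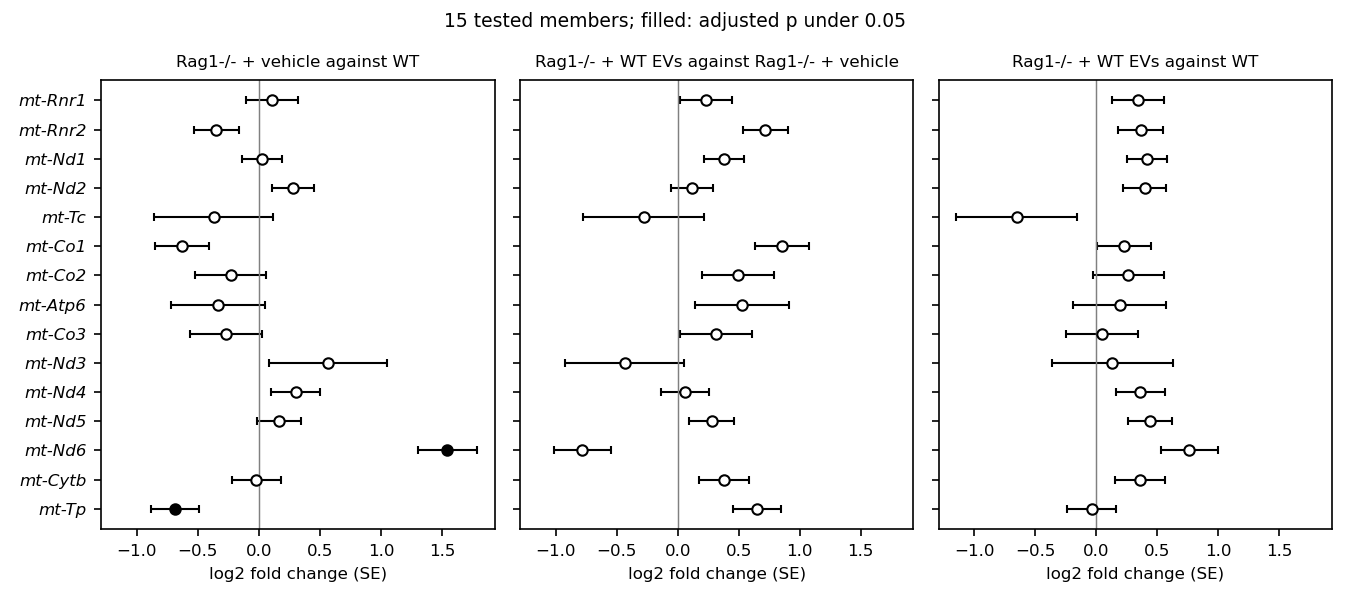
Log2 fold change with SE of the 15 tested members in genome order, for vehicle against WT libraries (left), EV against vehicle libraries (middle) and EV against WT libraries (right). Filled points passed an adjusted p of 0.05, which were mt-Nd6 (1.54) and mt-Tp (-0.69) in the left panel.

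Ratios between members within a library do not depend on how libraries are scaled, and were taken after the counts had been seen, so they are given with no test. mt-Nd6 over mt-Nd5, its neighbour on the other strand, was 0.0571, 0.04999 and 0.0561 in EV libraries, 0.0843, 0.134 and 0.115 in vehicle libraries and 0.0437, 0.0517 and 0.0376 in WT libraries. mt-Rnr1 over mt-Rnr2 was 0.320, 0.306 and 0.295 in EV libraries, 0.368, 0.454 and 0.444 in vehicle libraries and 0.354, 0.336 and 0.253 in WT libraries. Vehicle libraries were the highest in both ratios, by little for the rRNAs. The sum of mt-Nd1, mt-Nd2, mt-Nd4 and mt-Nd5 over mt-Co1 was 0.589, 0.621 and 0.636 in EV libraries, 0.799, 1.04 and 0.980 in vehicle libraries and 0.596, 0.666 and 0.448 in WT libraries. mt-Cytb over mt-Co1 was 0.281, 0.275 and 0.292 in EV libraries, 0.345, 0.430 and 0.409 in vehicle libraries and 0.264, 0.284 and 0.243 in WT libraries. In all 4 ratios the 3 vehicle libraries lay above the other 6, while EV and WT libraries overlapped. These ratios share genes, and the copies of mt-Co1 and mt-Nd4 take the same windows in every library. The share of reads outside exons was also lower in vehicle libraries than in the other 6, and its part in the ratios was not tested.

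**Figure D5:**
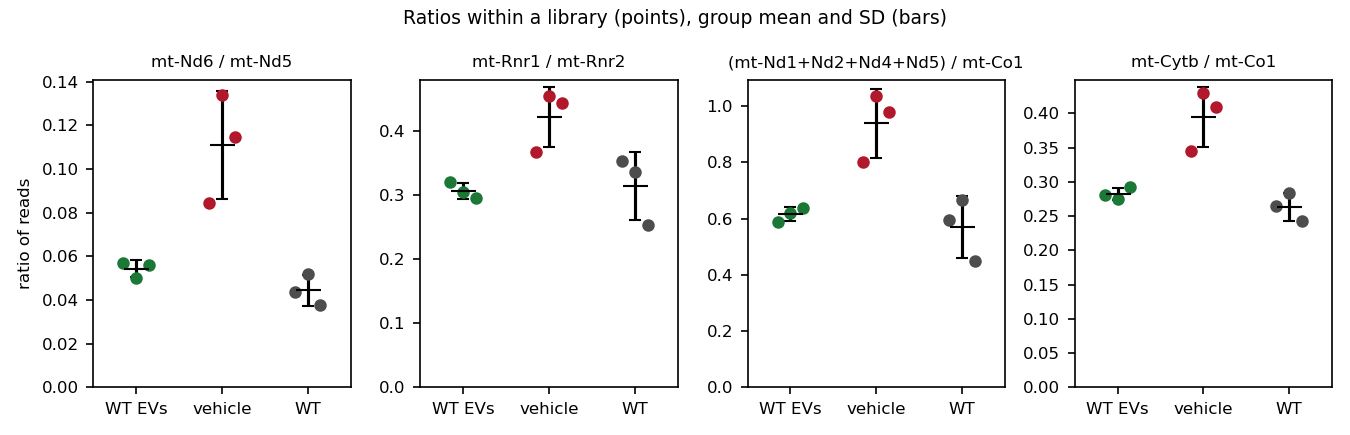
Ratios of reads between members within each library (points), with group means and SDs (bars), EV libraries left, vehicle libraries in the middle and WT libraries right. In each panel the 3 vehicle libraries lie above the other 6, as for mt-Nd6 over mt-Nd5 with 0.0843 to 0.134 against 0.0376 to 0.0571.

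Heavy-strand members varied together across the 9 libraries. Among the 8 with many reads (both rRNAs, mt-Nd1, mt-Nd2, mt-Co1, mt-Nd4, mt-Nd5 and mt-Cytb) the 28 pairwise Pearson correlations of log2 CPM ranged over 0.33 to 0.96, with a median of 0.77. mt-Nd6 followed them less, with correlations of -0.38 (mt-Co1) to 0.68 (mt-Nd4) and a median of 0.34. With mt-Tp, the other light-strand gene with many reads, it had -0.48, whereas mt-Tp had 0.89 with mt-Co1. These are descriptions over 9 libraries that share group differences and scaling. Over all tested genes, the patterns most like that of mt-Nd6 were those of Nemp1 (r = 0.97), which encodes a protein of the inner nuclear membrane, the small nucleolar RNA gene Gm25117 (0.96) and Gpatch1 (0.94), a protein of the spliceosome.

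Nuclear genes that transcribe, process and translate mitochondrial RNA were counted too. Of 96 listed, 93 were tested, and 0 were called higher and 2 lower in vehicle against WT libraries, where 6.28% of all genes were called higher and 9.71% lower. They were Fastkd2, which encodes a protein that binds mitochondrial RNA (15.4 ± 0.206 CPM in vehicle and 20.1 ± 1.498 CPM in WT libraries, log2 fold change -0.39, SE 0.0973, adjusted p = 0.0311 in edgeR), and Fars2, the mitochondrial phenylalanyl-tRNA synthetase (14.2 ± 0.909 CPM in vehicle and 19.6 ± 3.83 CPM in WT libraries, -0.46, SE 0.142, adjusted p = 0.0489 in edgeR). In EV against vehicle libraries 1 was called higher and 0 lower, where 2.17% of all genes were called higher and 1.24% lower. It was Hsd17b10, a subunit of the mitochondrial RNase P that cuts tRNAs from the transcripts (17.4 ± 0.911 CPM in EV and 12.999 ± 0.422 CPM in vehicle libraries, 0.42, SE 0.0914, adjusted p = 0.0382 in edgeR). EV against WT libraries gave 0 calls by edgeR (17 at an unadjusted p under 0.05, with 2944 of 17948 over all genes), 1 by DESeq2 on all 9 libraries and 0 by limma-voom. The median log2 fold change of the 93 was 0.02 in vehicle against WT, -0.01 in EV against vehicle and -0.02 in EV against WT libraries, each beside that over all genes given above. By list, the calls came from RNA processing, modification and stability (35 tested) and tRNA synthetases (20 tested), while transcription and replication (16), translation factors (13) and regulators of mitochondrial biogenesis (9) had 0 in edgeR. In vehicle against WT libraries 0 were called without EV replicate 3, vehicle replicate 1, 2 or 3, or WT replicate 1 or 6. Over all genes 1422, 3, 0, 0, 1 and 1483 were called in these fits. Without WT replicate 3, 20 of the listed genes were called, where 6602 of all 18842 genes were. In EV against vehicle libraries 0 were called without any one EV or vehicle library or WT replicate 1, where at most 222 were called over all genes. Without WT replicate 3 and 6 there were 4 and 10, where 1317 of 18842 and 2985 of 18060 genes were called.

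Polrmt, the mitochondrial RNA polymerase, averaged 20.7 ± 1.57 CPM in EV libraries, 21.5 ± 1.502 in vehicle libraries and 17.3 ± 1.34 in WT libraries. Its log2 fold changes were 0.31 for vehicle against WT (edgeR adjusted p = 0.0566), -0.05 for EV against vehicle and 0.26 for EV against WT libraries. Tfam, which packs the mitochondrial genome and starts transcription, averaged 29.8 ± 2.87 CPM in EV libraries, 30.9 ± 1.72 in vehicle libraries and 31.7 ± 0.623 in WT libraries. Its log2 fold changes were -0.03 for vehicle against WT, -0.05 for EV against vehicle and -0.09 for EV against WT libraries. Lrpprc, which holds mitochondrial mRNAs stable, averaged 63.4 ± 4.83 CPM in EV libraries, 73.8 ± 1.97 in vehicle libraries and 61.0 ± 4.60 in WT libraries. Its log2 fold changes were 0.27 for vehicle against WT (edgeR adjusted p = 0.0537), -0.22 for EV against vehicle (0.166) and 0.06 for EV against WT libraries (0.781). None of the 9 values for these 3 genes passed.

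Some nuclear subunits of the same complexes were called lower in vehicle against WT libraries, namely 4 of 35 tested for complex I, 2 of 8 for complex III, 6 of 11 for complex IV and 3 of 14 for ATP synthase, with 0 called higher. Over all genes 9.71% were called lower, and complex I, at 4 of 35, was near that share. The median log2 fold changes were -0.16, -0.19, -0.50 and -0.02, beside -0.03 over all genes. In EV against vehicle libraries 1, 1, 1 and 0 were called higher and 0 lower, with medians of 0.13, 0.15, 0.25 and 0.07. EV against WT libraries gave 0 calls by edgeR in all 4 lists (12, 4, 4 and 2 at an unadjusted p under 0.05). DESeq2 on all 9 libraries gave 4, 0, 2 and 0, and limma-voom 0. The counts in vehicle against WT libraries went to 0 in all 4 lists without any one vehicle library, without WT replicate 1, by edgeR on the 6 libraries and with the covariate. Over all genes 3, 0, 0, 1, 0 and 109 were called in these fits. Without WT replicate 6 the lists had 3, 1, 4 and 1, where 1483 of 18060 genes were called. The counts in EV against vehicle libraries were 0 without EV replicate 2 or 5, any vehicle library or WT replicate 1. Over all genes at most 17 were called in those fits. Without WT replicate 6 the lists had 4, 1, 4 and 1, where 2985 of 18060 genes were called. The mitochondrial subunits of complex IV stood at -0.63 (mt-Co1), -0.23 (mt-Co2) and -0.27 (mt-Co3) in vehicle against WT libraries, of which only mt-Co1 was counted over most of its length.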

How the data were processed

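RNA from the frontal cortex was made into directional libraries and sequenced as 75-base pairs. The authors aligned reads with STAR (2.7.5c) to GRCm38 and counted them with HTSeq (0.11.1 per the labels) over exons, without strand, and deposited raw counts in 1 table. Whether poly(A) RNA was selected is not given in the sources used here. Reads aligned to several places were dropped, and the table's sums for reads outside exons (6.54 to 30.1% of uniquely aligned reads) and in overlapping genes (3.10 to 4.31%) stayed out of library sizes and tests.

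Identifiers were matched to GENCODE M21 (98.19% of 56246). Members and lists were chosen with earlier results of these data known. All 9 libraries were fitted in edgeR (4.0.16, R 4.3.3) with TMM and filterByExpr (minimum count 10, minimum total 15), the 2-sided quasi-likelihood test and Benjamini-Hochberg adjustment over 17948 genes, called under 0.05. SE is the log2 fold change over the square root of F. The fit was tested on simulated data. Shares were compared by exact permutation (scipy 1.17.1).

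Named were all protein and rRNA genes, tested tRNA genes, Polrmt, Tfam, Lrpprc, called machinery genes (up to 4 per direction and list), the 3 pseudogenes with most reads and the 3 genes most like mt-Nd6. Alternatives were DESeq2 (1.42.0), limma-voom (3.58.1), other scalings and filters, a replicate block, a covariate, few-copy members and each library left out. Replicate pairs differed beyond counting noise (chi-square per degree of freedom 18.5 to 102).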

Additional observations from a re-analysis of the deposited data

How the results depend on the processing

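Members called in vehicle against WT libraries numbered 1 by limma-voom, with the replicate block and with the covariate for reads outside exons, 0 by edgeR on the 6 libraries, and 0 to 3 with each library left out, against 2. It was 3 by DESeq2 on 9 libraries, by DESeq2 on 6 and with no filter, where mt-Co1 was called lower. In EV against vehicle libraries they numbered 4 by DESeq2 on 9 libraries, 5 by DESeq2 on 6, 4 by edgeR on 6, 4 with no filter (mt-Tm among them), 1 with at least 1 CPM in 3 libraries, 2 with the replicate block, 3 with the covariate and 0 to 4 with each library left out, against 0. In EV against WT libraries DESeq2 on 9 libraries, on 6 and no filter called 1, against 0.

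Machinery genes called in vehicle against WT libraries numbered 8 by DESeq2 on 9 libraries, 4 on 6, 1 by limma-voom, 4 with DESeq2 size factors, 8 with no filter, 0 with the replicate block, the covariate or edgeR on 6 libraries, and 0 to 20 with each library left out (20 without WT replicate 3), against 2. In EV against vehicle libraries they numbered 6 by DESeq2 on 9 libraries, 8 on 6, 11 by edgeR on 6, 2 with at least 1 CPM in 3 libraries, 5 with the covariate and 0 to 10 with each library left out, against 1. In EV against WT libraries they numbered 1 by DESeq2 on 9 libraries and 0 to 5 with each library left out (5 without WT replicate 3), against 0. Calls over all genes moved too. In vehicle against WT libraries they were 4457 by DESeq2 on 9 libraries, 0 by edgeR on 6 and 6602 without WT replicate 3, against 2871. In EV against vehicle libraries they were 2169 by DESeq2 on 9 libraries, 3289 by edgeR on 6 and 2985 without WT replicate 6, against 613. In EV against WT libraries they were 410 by DESeq2 on 9 libraries and 1537 without WT replicate 3, against 8.

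Of 45 log2 fold changes, 30 kept their sign in every alternative. With the replicate block signs changed for mt-Rnr1 in vehicle against WT (-0.10), mt-Nd2, mt-Co3 and mt-Nd4 in EV against vehicle (-0.0457, -0.0454 and -0.15), and mt-Co3, mt-Nd3 and mt-Tp in EV against WT (-0.28, -0.21 and 0.11). The labels' shared numbers were not shown to pair libraries (correlations -0.153 to 0.160). In vehicle against WT, mt-Nd1 changed with upper-quartile factors (-0.0358) and at least 1 CPM (-0.0198), and mt-Cytb by DESeq2 and its size factors (0.0017 each), limma-voom (0.0067), no filter (0.0614), the block (0.17) and the covariate (0.47). The covariate also turned mt-Co2 (0.15), mt-Atp6 (0.18), mt-Co3 (0.12), mt-Nd4 in EV against vehicle (-0.0791) and mt-Tp in EV against WT (0.22). No filter turned the last (0.0044). The cause was not tested.

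With libraries left out, vehicle against WT ranged over -0.0892 to 0.35 for mt-Rnr1, -0.057 to 0.12 for mt-Nd1, -0.76 to 0.12 for mt-Tc, -0.38 to 0.0416 for mt-Co2 and -0.15 to 0.21 for mt-Cytb. EV against vehicle ranged over -0.0122 to 0.44 for mt-Rnr1, -0.0748 to 0.26 for mt-Nd2, -0.56 to 0.10 for mt-Tc and -0.16 to 0.23 for mt-Nd4. EV against WT ranged over -0.17 to 0.28 for mt-Co3 and -0.20 to 0.15 for mt-Tp. The difference in rRNA share ranged over -1.98 to 1.54 points (vehicle against WT), -0.948 to 1.89 (EV against vehicle) and -1.06 to 1.80 (EV against WT, -0.165 among few-copy members, an alternative chosen after seeing the data). The tRNA share difference of EV and vehicle libraries ranged over -0.00212 to 0.00104 points, and was 0.00133 without rRNA in the denominator. Differences in the mitochondrial and light-strand shares kept their sign in all alternatives run, while the mitochondrial share of vehicle against WT libraries was -0.695 points over all uniquely aligned reads, against -2.31. A few-copy tRNA share was not run, since tRNA genes are shorter than the window, and copies were sought in annotated transcripts only.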
